A study of Homo sapiens with 6 samples.

Results

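The 34 complement genes described here were taken by symbol from the 43424 symbols of the count tables: 6 of the classical pathway, 4 of the lectin pathway, C3 with the alternative pathway genes CFB and CFD, 7 of the terminal pathway, 7 for soluble complement-binding proteins and regulators, C1QBP included, 4 factor H-related genes and 3 membrane regulators. The complement system is a set of plasma and cell-surface proteins that mark particles for clearance and can pierce membranes. It is started by the classical pathway (antibody bound by C1), the lectin pathway (sugars bound by mannose-binding lectin or ficolins) or the alternative pathway (spontaneous turnover of C3), all of which cut C3 and then C5 and end in the membrane attack complex of C5b to C9. The liver makes most of the circulating components, and soluble and membrane-bound regulators keep the cascade off host cells.

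The cells were HepG2, a line derived from a human hepatocellular carcinoma that retains much of the secretory programme of hepatocytes. In 3 cultures, labelled as biological replicates, wild-type HepG2 cells received 10 µM tamarixetin, a methylated flavonol, for 24 h in medium with 1% serum. In the 3 control cultures, labelled in the same way, wild-type HepG2 cells had no treatment. The labels give 10% serum for the growth of the cells in both groups. The serum of the control medium during those 24 h and any vehicle are not given in the labels. Compound and medium therefore cannot be told apart where they differed. RNA was read with QuantSeq, a kit that sequences the 3′ end of polyadenylated transcripts, so long and short transcripts yield similar numbers of reads per molecule.

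The libraries held 11980585 to 16168855 counts. The hepatocyte markers ALB, APOA1, TTR, SERPINA1, AFP and TF were abundant in all 6 libraries, at a summed 6768 to 7031 CPM (a gene's counts scaled to the size of its library) with tamarixetin and 12864 to 13291 CPM in controls. Of 7 immune markers, CD3E had no count in any library, and the summed level was 766 to 823 CPM with tamarixetin and 909 to 1011 CPM in controls, nearly all of it LYZ. PTPRC, which marks leukocytes, averaged 0.0977 ± 0.0866 CPM with tamarixetin and 0.114 ± 0.0650 CPM in controls (SD, n = 3 each). The 6 mesenchymal markers summed to 36.5 to 38.9 CPM with tamarixetin and 39.9 to 45.1 CPM in controls, and the 5 endothelial markers to 1.01 to 1.90 CPM with tamarixetin and 0.878 to 1.42 CPM in controls, with KDR and STAB2 at 0 throughout. The share of mitochondrial RNA was 8.24% ± 0.278 with tamarixetin and 10.7% ± 0.391 in controls (SD, n = 3 each). The part of these shifts in the complement results was not tested.

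Most complement genes with enough counts were lower with tamarixetin. Among them were all 3 of C3 and the alternative pathway and all 6 genes for secreted regulators. Higher were 2 lectin pathway genes, 2 membrane regulators and C1QBP. Of the 34 genes 24 had enough counts to be tested, and 15 of them fell while 5 rose at an adjusted p under 0.05 (quasi-likelihood test of edgeR, Benjamini-Hochberg over the 13198 genes tested). Among all genes tested, 21.3% fell and 22.4% rose, so 43.7% changed, against 83.3% of the tested complement genes. Their median log2 fold change was -0.44, beside 0.00038 over all genes tested. The falls were moderate in size: only C8A, MASP2 and C4BPA fell by at least 2-fold, and MBL2, CD55 and MASP1 rose by as much, where 6.08% of all genes passed both criteria, 2.7% falling and 3.37% rising. The 3 tamarixetin libraries lay wholly apart from the 3 controls in 22 of the 24 genes, beside 50.5% of all genes. CPM are shares of a library, so a shift in other transcripts can move them. Each library pools the RNA of many cells, so less RNA per cell and fewer cells with the transcript cannot be told apart. Of the 24 genes, 23 passed the low-count filter in each group taken alone, and C8B passed only through the controls.

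**Figure D1:**
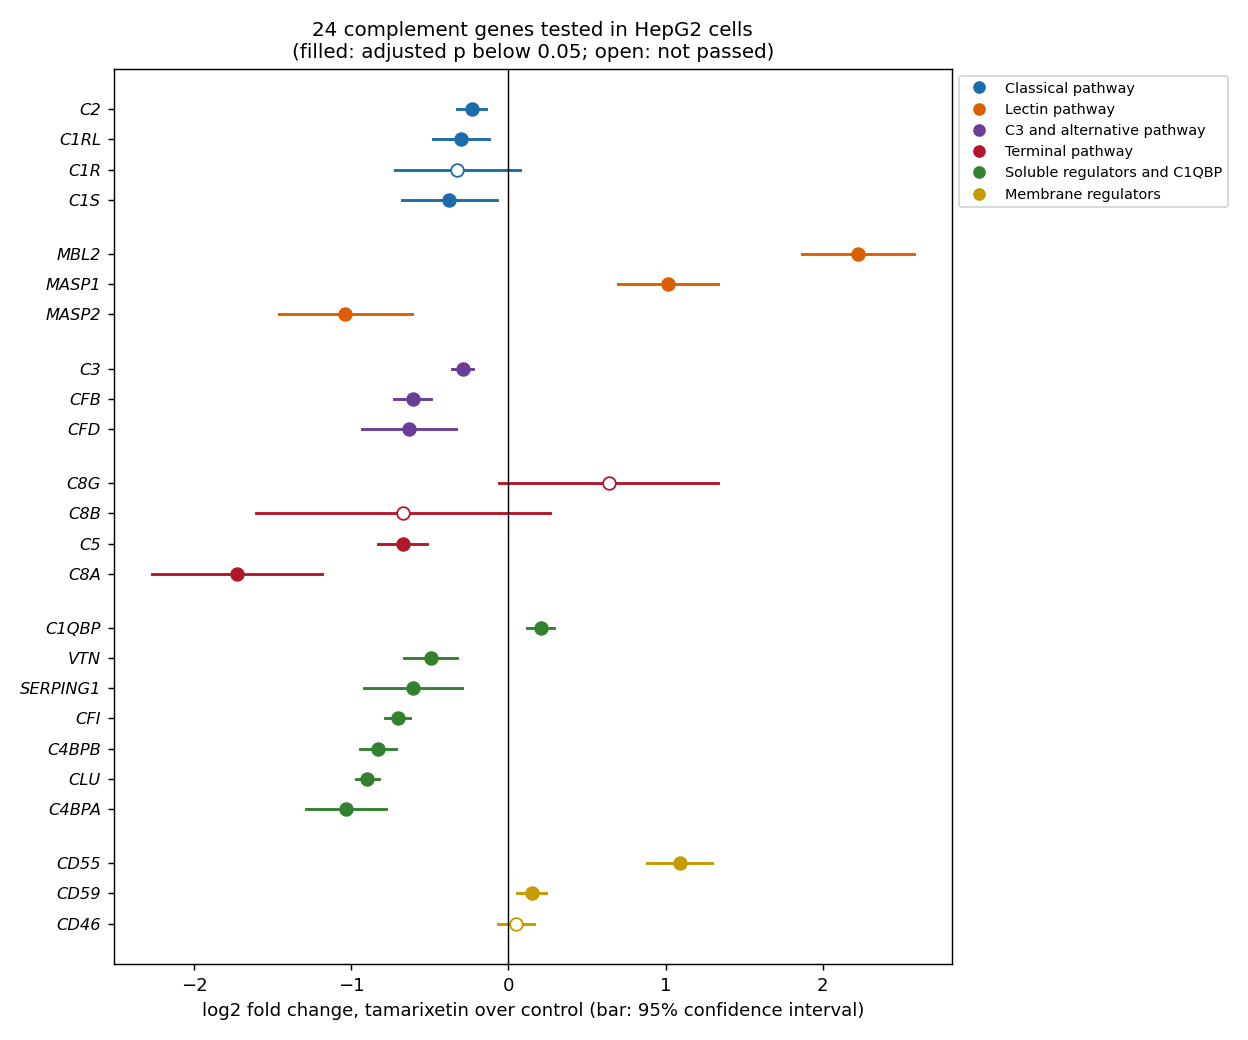
Log2 fold change (tamarixetin over control, x axis) of the 24 complement genes tested, 1 row per gene, grouped and coloured by pathway, with 95% confidence intervals as bars. Filled points passed an adjusted p of 0.05 and open points did not: C1R, C8G, C8B and CD46.

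The genes were also grouped by where the protein ends up, a grouping made after the values were seen. Of the 20 tested genes for secreted proteins 15 fell and 2 rose, MBL2 and MASP1, with a median log2 fold change of -0.61. Among all genes tested 21.3% fell and 22.4% rose. The 4 genes for proteins that stay with the cell, namely CD46, CD55, CD59 and the largely mitochondrial C1QBP, had a median of 0.18, with 3 higher and none lower. Summed over all 30 genes for secreted proteins, the level was 1571 ± 6.67 CPM with tamarixetin and 2259 ± 31.6 CPM in controls. Summed over the 4 others, it was 469 ± 3.62 CPM with tamarixetin and 409 ± 8.74 CPM in controls (SD, n = 3 each).

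Several complement genes, C3 and CFB among them, are known acute-phase genes, and STAT and C/EBP factors drive many genes of that response. RefSeq promoter windows on GRCh38.p14, from 250 bases before to 50 bases after an annotated start site, were at hand for 22 of the 34 genes. Of the genes that fell, C3, CLU, SERPING1 and C1S had no window and were not searched. The same held for C4A, C4B, FCN3, C8G and the factor H-related genes. The palindromic STAT motif TTCNNNGAA, read on both strands, was found in 9 of these 22 genes, beside 9.38% of the 27305 genes with such a window. It stood in 2 of 5 genes that rose (MBL2 and CD59) and in 5 of 11 that fell (C1RL, MASP2, CFB, C4BPB and VTN), so genes of both directions held it. Windows of a riser and of 3 genes that fell are printed 5′ to 3′ on the coding strand, with the STAT match in capitals, to show the same motif beside opposite changes. They lie at chr10:52772735-52773034 (MBL2, minus strand), chr1:11047190-11047489 (MASP2, minus strand), chr6:31945845-31946144 (CFB, plus strand) and chr1:207088989-207089288 (C4BPB, plus strand).
MBL2: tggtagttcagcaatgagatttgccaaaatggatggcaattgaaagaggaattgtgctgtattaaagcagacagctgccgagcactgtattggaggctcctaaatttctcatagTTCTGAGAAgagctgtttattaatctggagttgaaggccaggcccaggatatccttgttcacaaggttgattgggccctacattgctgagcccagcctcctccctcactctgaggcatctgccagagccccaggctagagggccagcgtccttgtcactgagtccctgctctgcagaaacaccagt
MASP2: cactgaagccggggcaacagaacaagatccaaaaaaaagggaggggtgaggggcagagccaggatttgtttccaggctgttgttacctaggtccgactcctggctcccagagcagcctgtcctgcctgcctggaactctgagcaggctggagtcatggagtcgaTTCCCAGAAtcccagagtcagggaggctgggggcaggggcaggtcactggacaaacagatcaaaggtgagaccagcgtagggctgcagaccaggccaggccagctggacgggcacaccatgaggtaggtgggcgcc
CFB: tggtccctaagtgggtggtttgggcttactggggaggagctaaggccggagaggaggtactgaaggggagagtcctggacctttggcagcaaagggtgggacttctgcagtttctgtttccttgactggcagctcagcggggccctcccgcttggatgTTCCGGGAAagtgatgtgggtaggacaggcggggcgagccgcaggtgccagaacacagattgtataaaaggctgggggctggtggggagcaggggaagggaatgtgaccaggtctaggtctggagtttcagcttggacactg
C4BPB: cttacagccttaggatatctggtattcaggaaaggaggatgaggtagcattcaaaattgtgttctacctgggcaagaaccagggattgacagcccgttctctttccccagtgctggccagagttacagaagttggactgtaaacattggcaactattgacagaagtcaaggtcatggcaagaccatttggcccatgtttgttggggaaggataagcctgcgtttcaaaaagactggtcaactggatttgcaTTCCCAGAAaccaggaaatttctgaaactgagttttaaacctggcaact
A match is a string of letters and not a shown binding site. With the start site of the window as 0, the match began at -136 in MBL2, at -86 in MASP2, at -92 in CFB and at 1 in C4BPB, just inside the transcript. The C4BPB window printed belongs to a start site that lies within the gene's span, not at its first base. In the window of another C4BPB start site a match began at -43.

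Other motifs were found in fewer of these genes. The C/EBP motif TTGCNNAA was in 6 of the 22 genes, beside 12.7% of all genes, and the HNF1 palindrome in 1, C5, beside 0.11%. C/EBP matches stood in 2 of 5 genes that rose and in 2 of 11 that fell. The core of the aryl hydrocarbon receptor motif, GCGTG, was in 5 of 22 (MASP1, MBL2, C5, C1QBP and CD46), beside 40.6%. It stood in 3 of 5 genes that rose and in 1 of 11 that fell, a split that was not tested. The antioxidant response motif TGACNNNGC was in MBL2 alone, beside 16.1%. Matches to different motifs may overlap.

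The lectin pathway moved in both directions. MBL2 codes for mannose-binding lectin, the sugar-binding starter of the pathway (chromosome 10, 52765380 to 52772784, GRCh38.p14). It stood at 12.2, 13.5 and 14.4 CPM in the tamarixetin libraries and at 2.35, 3.83 and 2.51 CPM in the controls. Every tamarixetin library was above every control, and the 4.67-fold rise was the largest change among the 24 tested genes of the list (log2 fold change 2.22, SE 0.179, adjusted p = 4.24e-20, edgeR with Benjamini-Hochberg adjustment). The counts behind it were 174 to 190 per tamarixetin library and 34 to 46 per control library.

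MASP1 codes for a serine protease that travels with mannose-binding lectin and ficolins (chromosome 3, 187217282 to 187291737). It had 13.5, 9.63 and 13.3 CPM with tamarixetin against 4.63, 7.25 and 6.21 CPM in controls, without overlap (log2 fold change 1.02, SE 0.160, adjusted p = 5.76e-08, edgeR with Benjamini-Hochberg adjustment). The gene also makes the isoforms MASP-3 and MAp44 with other 3′ ends, and a count per gene does not tell them apart. MASP2 codes for the protease that cuts C4 and C2 (chromosome 1, 11026523 to 11047239), and it went the other way. It had 3.34, 3.11 and 2.97 CPM with tamarixetin and 7.88, 5.33 and 6.14 CPM in controls (log2 fold change -1.04, SE 0.213, adjusted p = 2.34e-05, edgeR with Benjamini-Hochberg adjustment). There were 3.87 ± 0.705 MASP1 counts per MASP2 count with tamarixetin and 0.986 ± 0.386 in controls (SD, n = 3 each), a ratio chosen after its parts were seen. The ficolin gene FCN3 had no count in any library.

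**Figure D2:**
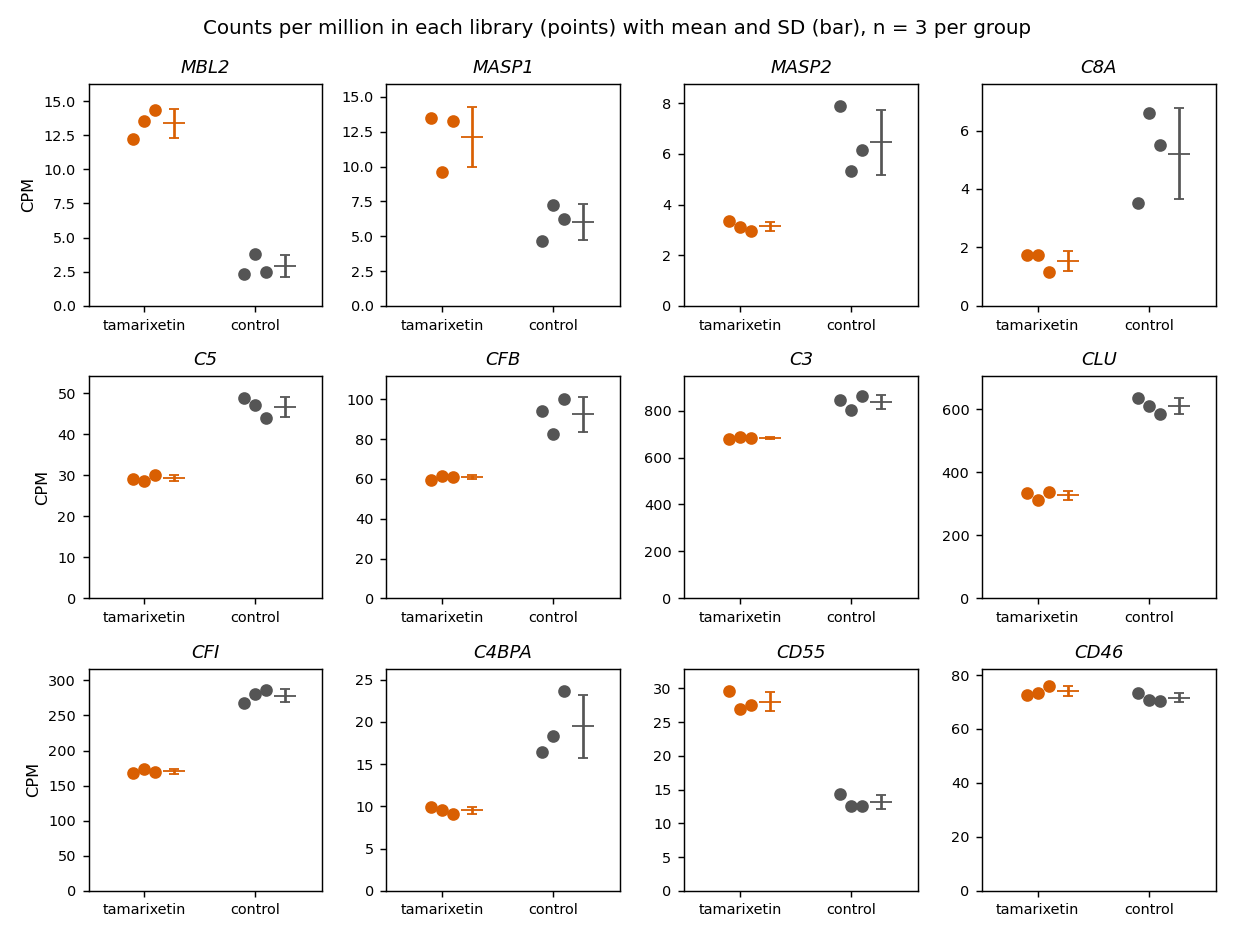
CPM of 12 complement genes in each library (y axis, from 0), with the 3 tamarixetin libraries left of the 3 controls and the mean and SD beside the points. MBL2, MASP1 and CD55 lie higher with tamarixetin, CD46 overlaps, and the other 8 lie lower.

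Of the 4 classical pathway genes tested 3 fell, each by little, and none rose. C2 codes for the protease part of the classical and lectin C3 convertase (chromosome 6, 31897783 to 31945672). It had 115, 122 and 118 CPM with tamarixetin against 141, 139 and 137 CPM in controls, a tight and non-overlapping 15.0% fall (log2 fold change -0.23, SE 0.0477, adjusted p = 2.05e-05, edgeR with Benjamini-Hochberg adjustment). The other 3 tested genes lie side by side on chromosome 12 and code for C1r, C1s and the C1r-like protease. C1RL averaged 24.4 ± 1.76 CPM with tamarixetin and 30.0 ± 1.13 CPM in controls and fell (log2 fold change -0.30). C1S, the protease that cuts C4 and C2 in the classical pathway, averaged 7.68 ± 0.367 CPM with tamarixetin and 10.0 ± 1.2 CPM in controls (SD, n = 3 each). Its call (log2 fold change -0.38, adjusted p = 0.0374 in edgeR with Benjamini-Hochberg adjustment) was lost without tamarixetin replicate 1 (0.1) or 3 (0.0801), without control replicate 2 (0.152) or 3 (0.0912) and in DESeq2 (0.125), as it was with no filter on low counts (0.0649), with library size alone (0.0607) and at a threshold of 0.01. C1R, the protease that activates C1s, did not pass: it had 5.58, 6.44 and 2.89 CPM with tamarixetin and 7.46, 5.00 and 6.33 CPM in controls, with a 95% interval of the log2 fold change from -0.72 to 0.07. Tamarixetin replicate 3 was the lowest of these. In the GENCODE v29 annotation 385 of the last 500 bases of C1RL overlap exons of C1R on the same strand. The RefSeq spans, 7080219 to 7092445 for C1R and 7094554 to 7109214 for C1RL, do not overlap. The annotation release used for counting is not given, so the split of counts between these neighbours is uncertain.

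C4A and C4B, the copies of the C4 gene, had 1 count and no count in all 6 libraries together. The longest transcripts of the pair in GENCODE v29 are identical over their last 1520 bases. Reads from that stretch have no unique origin, so these values are uncertain and are no measure of C4 expression.

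C3, the protein on which the pathways meet, took 33.5% ± 0.381 of the counts of the 34 genes with tamarixetin and 31.3% ± 0.833 in controls (SD, n = 3 each). The gene (chromosome 19, 6677704 to 6720650) stood at 679, 688 and 682 CPM with tamarixetin against 845, 801 and 862 CPM in controls. The groups did not overlap, and the fall was of 18.3% (log2 fold change -0.29, SE 0.0330, adjusted p = 7.06e-13, edgeR with Benjamini-Hochberg adjustment). Both other genes of the alternative pathway fell further. CFB codes for factor B, the protease of the alternative C3 convertase (chromosome 6, 31946095 to 31952084, next to C2). It had 59.7, 61.7 and 60.9 CPM with tamarixetin and 94.3, 82.7 and 100.2 CPM in controls (log2 fold change -0.61, SE 0.0600, adjusted p = 1.57e-15, edgeR with Benjamini-Hochberg adjustment). CFD codes for factor D, which cuts factor B, and had 7.50, 7.31 and 7.18 CPM with tamarixetin against 13.7, 9.84 and 10.5 CPM in controls (log2 fold change -0.63, SE 0.151). The tamarixetin libraries kept close together in both genes, while the controls spread more widely.

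Of the 4 terminal pathway genes tested C5 and C8A fell and none rose. C5, the precursor of the anaphylatoxin C5a and of C5b (chromosome 9, 120952335 to 121074865), had 29.1, 28.7 and 30.1 CPM with tamarixetin against 48.9, 47.2 and 44.1 CPM in controls. This was a clear gap between the groups (log2 fold change -0.67, SE 0.0786, adjusted p = 2.65e-12, edgeR with Benjamini-Hochberg adjustment). C8A, the alpha chain of C8 (chromosome 1, 56854797 to 56918223), had the largest fall among the 24 tested genes. It stood at 1.73, 1.74 and 1.15 CPM with tamarixetin and at 3.52, 6.58 and 5.52 CPM in controls (log2 fold change -1.73, SE 0.274, adjusted p = 7.04e-08, edgeR with Benjamini-Hochberg adjustment). Its counts were low, 14 to 27 per tamarixetin library and 51 to 88 per control library.

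The other chains of C8 were too thinly counted to place. C8B, the beta chain, lies next to C8A and had 8 to 12 counts per tamarixetin library and 11 to 24 per control library, with a 95% interval of the log2 fold change from -1.60 to 0.27. C8G, the lipocalin-like gamma chain on chromosome 9, had 23 to 42 counts with tamarixetin and 17 to 23 in controls, and its interval ran from -0.06 to 1.33. Neither passed. C6 had 6, 3 and 4 counts with tamarixetin and 6, 17 and 7 in controls, C7 had 7, 2 and 6 with tamarixetin and 3, 6 and 0 in controls, and neither was tested. C9 had no count in any library. For a gene at 0, the depth allows up to 0.192 to 0.247 CPM in a tamarixetin library and 0.188 to 0.250 CPM in a control library (3 counts, counting error only).

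All 6 genes for secreted regulators fell, with log2 fold changes between -1.03 and -0.49, and none overlapped between the groups. Among all genes tested 21.3% fell, and 24.5% lay wholly below the controls. CLU codes for clusterin, which holds back assembly of the membrane attack complex (chromosome 8, 27596917 to 27614700). It had 335, 311 and 337 CPM with tamarixetin against 636, 611 and 584 CPM in controls (log2 fold change -0.90, SE 0.0367, adjusted p = 1.08e-40, edgeR with Benjamini-Hochberg adjustment). CLU gave 16.1% ± 0.635 of the counts of the 34 genes with tamarixetin and 22.9% ± 1.12 in controls (SD, n = 3 each). CFI codes for factor I, the protease that inactivates C3b and C4b (chromosome 4, 109730982 to 109801999). It had 168, 174 and 169.8 CPM with tamarixetin and 268, 279.9 and 286 CPM in controls, so it fell by 38.7% (log2 fold change -0.71, SE 0.0413, adjusted p = 5.48e-29, edgeR with Benjamini-Hochberg adjustment).

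C4b-binding protein, the cofactor of factor I for C4b, is built of alpha and beta chains whose genes are neighbours on chromosome 1. C4BPA (alpha, 207104233 to 207144972) had 9.88, 9.63 and 9.07 CPM with tamarixetin against 16.4, 18.3 and 23.6 CPM in controls. C4BPB (beta, 207088860 to 207099993) had 61.8, 57.4 and 59.6 CPM with tamarixetin against 97.4, 105 and 115 CPM in controls. Both fell, with log2 fold changes of -1.03 (SE 0.127) and -0.83 (SE 0.0585). There were 6.27 ± 0.305 C4BPB counts per C4BPA count with tamarixetin and 5.51 ± 0.556 in controls (SD, n = 3 each), a shift smaller than the fall of either gene. PROS1, which codes for protein S, the plasma partner of the beta chain, fell as well, at 24.8 ± 2.16 CPM with tamarixetin and 38.4 ± 2.57 CPM in controls.

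SERPING1 codes for C1 inhibitor, which blocks C1r, C1s and the MASP proteases. It had 8.02, 6.44 and 5.94 CPM with tamarixetin and 9.54, 11.9 and 10.0 CPM in controls (log2 fold change -0.61, SE 0.157, adjusted p = 7.49e-04, edgeR with Benjamini-Hochberg adjustment). VTN codes for vitronectin, which binds C5b-7, and it averaged 27.2 ± 0.661 CPM with tamarixetin and 38.4 ± 4.06 CPM in controls (log2 fold change -0.49). Against these, C1QBP rose. It codes for a binder of the C1q heads that sits mostly in mitochondria (chromosome 17, 5432777 to 5439155), and it had 216, 208 and 209 CPM with tamarixetin and 172, 189 and 188 CPM in controls (log2 fold change 0.21, SE 0.0428, adjusted p = 3.18e-05, edgeR with Benjamini-Hochberg adjustment). The end of C1QBP overlaps RPAIN on the opposite strand over 100 of its last 500 bases, and whether the counting used strand is not given in the sources used here. All 4 factor H-related genes, CFHR2, CFHR3, CFHR4 and CFHR5, had no count in any library.

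**Figure D3:**
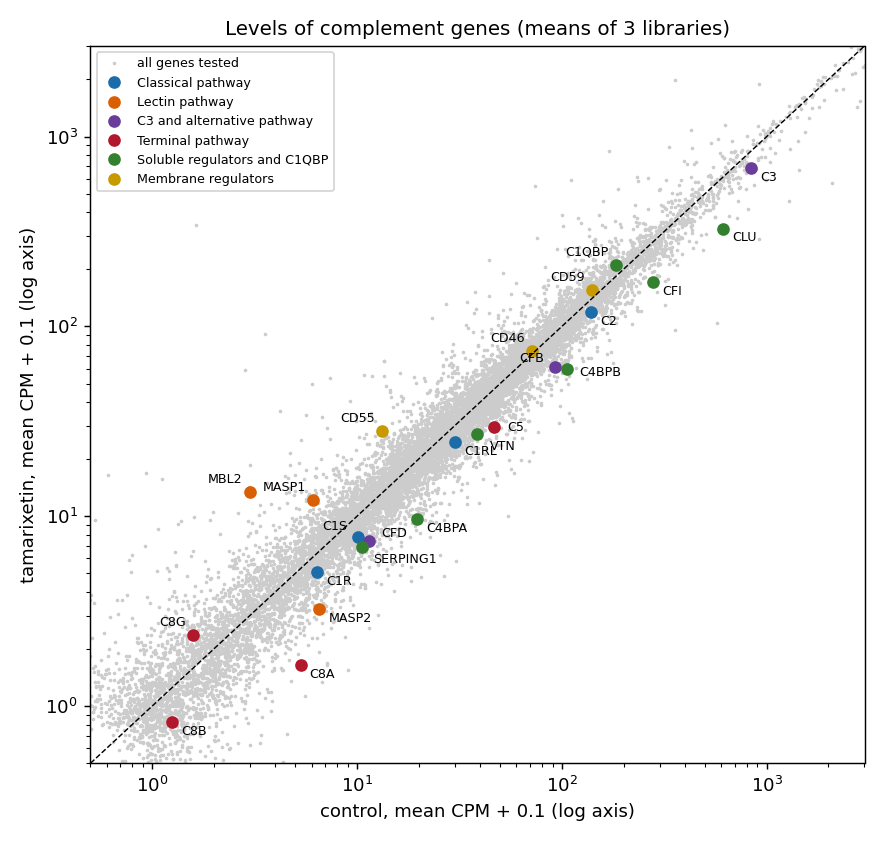
Mean CPM + 0.1 of all genes tested (grey) and of the 24 complement genes (coloured by pathway), with controls on the x axis and tamarixetin on the y axis, both on log scales, and the dashed line where the groups are equal. CLU, CFI, C4BPA, MASP2 and C8A lie under the line and MBL2, MASP1 and CD55 over it.

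The membrane regulators were not lower. CD55, or decay-accelerating factor, takes apart C3 and C5 convertases on the cell's own surface (chromosome 1, 207321678 to 207360966). It had 29.6, 27 and 27.5 CPM with tamarixetin against 14.4, 12.6 and 12.6 CPM in controls, a 2.13-fold rise with no overlap (log2 fold change 1.09, SE 0.105, adjusted p = 5.60e-16, edgeR with Benjamini-Hochberg adjustment). CD59, which stops C9 from entering the membrane attack complex, had 154, 156 and 158 CPM with tamarixetin and 138, 142 and 142 CPM in controls. The rise was small but the groups did not overlap (log2 fold change 0.15, SE 0.0455, adjusted p = 0.0052, edgeR with Benjamini-Hochberg adjustment). CD46, the membrane cofactor of factor I, had 72.7, 73.5 and 76.0 CPM with tamarixetin and 73.5, 70.8 and 70.5 CPM in controls. It did not pass, and the 95% interval of its log2 fold change ran from -0.07 to 0.16.

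CD55, CD46 and both C4BP genes belong to one gene cluster of complement regulators on chromosome 1, from the start of C4BPB at 207088860 to the end of CD46 at 207795516. Within it C4BPB and C4BPA fell and CD55 rose. Neighbours on chromosome 6 moved the same way, with C2 and CFB both lower. In GENCODE v29, 23 of the last 500 bases of C2 overlap an exon of CFB on the same strand, while their RefSeq spans do not overlap. CFB and VTN share 194 and 92 of their last 500 bases with further same-strand genes of GENCODE v29. C1QBP shares 100 with another, and none of these further genes was analysed here.

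Of 27 further complement genes, mostly receptors, C1q chains and enzymes that act on complement products, 8 were tested. Of these 5 fell (62.5%) and 1 rose (12.5%), beside 21.3% and 22.4% of all genes tested. Their median log2 fold change was -0.38. A filter of 5 CPM removed the gene that rose and the 2 that did not pass the threshold. The median of the genes left was -0.75, and none of them rose. In DESeq2 or with no filter on low counts 2 genes rose. CPB2, a carboxypeptidase that inactivates C5a, had 19.1, 15.6 and 16.4 CPM with tamarixetin and 47.9, 47.3 and 48.1 CPM in controls (log2 fold change -1.48, SE 0.0880). ITGB2, the beta chain of complement receptors 3 and 4, had 18.7, 18 and 23.8 CPM with tamarixetin and 34.3, 32.1 and 34 CPM in controls (log2 fold change -0.74, SE 0.0944). PROS1 was the next by p. The alpha chains of complement receptors 3 and 4, ITGAM and ITGAX, had 0 to 4 and 0 to 3 counts per library and were not tested. The gene that rose was C5AR2, a receptor for C5a, with 64, 75 and 72 counts in the tamarixetin libraries and none in any control. It passed the low-count filter only through the tamarixetin libraries. With the control group set to 3 counts in all, its level was at least 72.9-fold higher, and at this bound the list's median is the same. The chains of C1q were at or near 0, with C1QC at 0 in all 6 libraries.

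Genes for other secreted hepatocyte proteins were mostly lower too. Of 26 such genes 24 were tested. Among these 21 fell (87.5%) and 2 rose (8.33%), beside 21.3% and 22.4% of all genes tested. Their median log2 fold change was -0.84, beside -0.61 for the 20 secreted complement genes. Those with the smallest p were FGA (log2 fold change -2.47), FGG (-1.67), APOH (-1.49) and APOC3 (-1.89), the genes of 2 fibrinogen chains and 2 apolipoproteins. FGA had 102, 103 and 105 CPM with tamarixetin against 585, 561 and 578 CPM in controls. The list shares ALB, APOA1, TTR, SERPINA1 and TF with the hepatocyte markers. It was written with earlier results of these libraries known, and the difference between the lists was not tested.

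**Figure D4:**
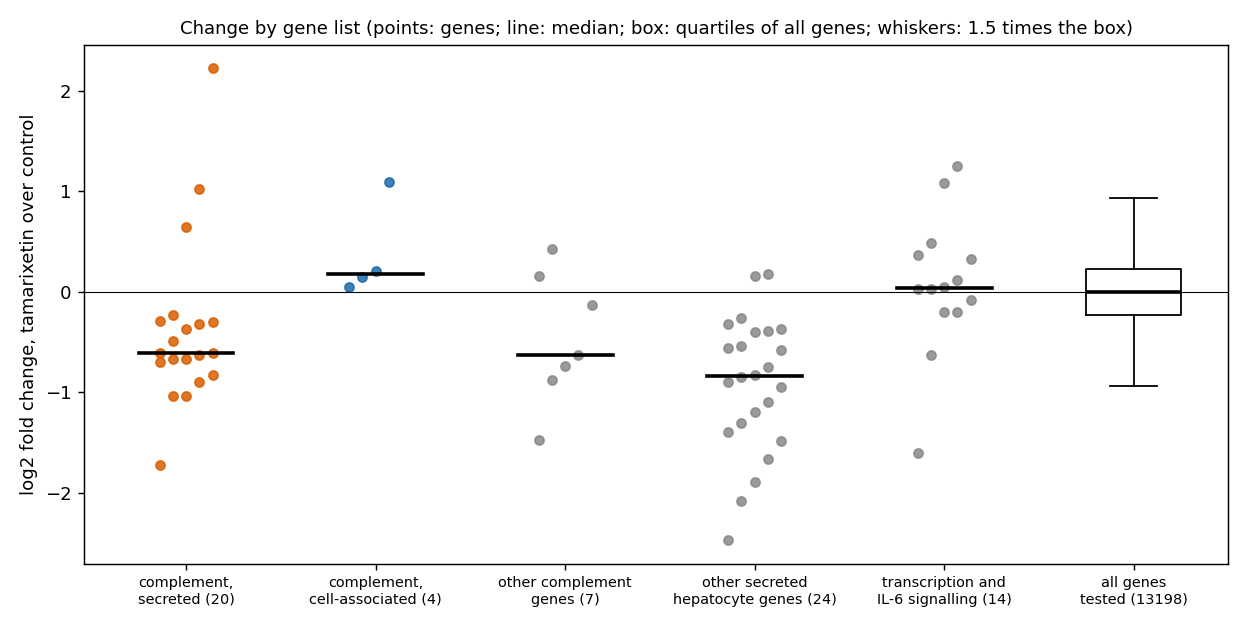
Log2 fold change (y axis, tamarixetin over control) of each tested gene by list, with the median of each list as a line and all 13198 genes as a box of quartiles. C5AR2, with no control counts, is not drawn, and the line of its list is the median of the 7 genes drawn. The 4 cell-associated complement genes lie over 0, and 17 of the 20 secreted ones lie under 0.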

How the data were processed

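RNA of 3 tamarixetin and 3 control cultures was compared. The kit was Lexogen's forward QuantSeq for 3′ mRNA, per the labels' protocols. The submitters' processing notes name featureCounts 2.0.6, STAR 2.7.10b, fastp 0.23.1 and GRCh38. How strand and molecular identifiers were handled, and the annotation release, is not given in the sources used here. Each deposited table holds unnormalized counts by gene symbol for 1 library.

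From these, edgeR 4.0.16 (R 4.3.3) removed low counts with filterByExpr, scaled with TMM and ran the quasi-likelihood test with group as the only term; p was adjusted by Benjamini-Hochberg over 13198 genes. CPM use TMM-adjusted library sizes. SE is the size of the log2 fold change over the root of F, and intervals are at 95%. The test was checked on simulated counts. Between libraries of a group, chi-square per gene was 2.37 to 3.53, more than sampling noise, so each library was kept as its own sample. The labels do not say whether replicates came from separate days, and p-values measure the spread between these cultures.

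The complement genes, the other lists and the motifs were chosen with earlier results of these data known. Values in every library are given for complement genes of the list past the threshold with a log2 fold change of at least 0.5 in size or a mean of at least 50 CPM; of each context list the 4 genes with the smallest p are named. Positions and promoters are RefSeq's for GRCh38.p14; transcript ends are GENCODE v29's. Alternatives were other scalings (DESeq2 size factors, library size, upper quartile), other filters, a replicate block, DESeq2 1.42.0, limma-voom (limma 3.58.1), a stricter p, a minimum fold and leaving out each library.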

Additional observations from a re-analysis of the deposited data

How the results depend on the processing

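Of the 20 complement genes called, 14 kept direction and call in all 16 alternatives, where those could be fitted (C8A was removed by the 5 CPM filter). The rest lost calls: when the test required a change of over 1.2-fold, C1S, C1RL, C2, C3, C1QBP and CD59 did not pass, leaving 3 complement genes higher and 11 lower, beside 1319 and 1241 of all genes; C1S was lost in further settings as given above. None of the 24 tested genes of the list turned its sign in these settings; of the further complement genes COLEC11, which did not pass, did (0.16, and -0.18 without tamarixetin replicate 3). Some medians moved by more than their SD over the 3 tamarixetin libraries. For the transcription list this SD was only 0.00168, and its median moved in 12 of 14 settings (0.00208 to 0.0955, beside 0.037). With library size alone the median log2 fold change was -0.57 for C3 and the alternative pathway and 0.18 for membrane regulators, and with upper quartile scaling -0.64 and 0.11. Leaving out each library in turn gave -0.68 to -0.48 for C3 and the alternative pathway and -0.79 to -0.48 for the terminal pathway. Same-numbered libraries did not deviate together (correlations of -0.0410 to -0.00886), so no pairing by number was seen. With 3 libraries per group this check cannot exclude one. With the replicate block 5 complement genes were higher and 15 lower. The share of C4A in C4A and C4B counts and their summed test were not run, since the pair had 1 count. Depth limits C6, C7, C8A, C8B and C8G.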

Other observations

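A list of 15 genes that act on complement transcription in the liver was mixed. Of 14 tested, 5 rose (35.7%) and 4 fell (28.6%), beside 22.4% and 21.3% of all genes tested. The median log2 fold change was 0.037, beside 0.00038 over all genes. That median was 0.0955 without control replicate 1, 0.0156 without control replicate 2, 0.00211 without control replicate 3, 0.0628 without tamarixetin replicate 3 and 0.00208 with upper quartile scaling, so its size is not settled. IL6R, the interleukin-6 receptor, had 56.6, 58.5 and 73.2 CPM with tamarixetin and 26.1, 25.3 and 27.6 CPM in controls, and its signalling partner IL6ST averaged 132 ± 1.74 CPM with tamarixetin and 93.8 ± 3.11 CPM in controls (SD, n = 3 each). Both rose in 3 of 3 libraries above every control (2.37-fold and 1.40-fold). CEBPA, a hepatocyte factor of the C/EBP family, fell to 82.2 ± 3.70 CPM with tamarixetin, against 127 ± 9.53 CPM in controls, and NR1H4, the bile acid receptor FXR, to 5.45 ± 0.318 CPM, against 16.5 ± 0.760 CPM in controls (log2 fold changes -0.63, SE 0.0534, and -1.60, SE 0.144). The link of these genes to the complement genes was not tested.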
